A study of Mus musculus with 6 samples.

Results

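The genes described here are 10 components of the transforming growth factor beta (TGF-beta) pathway, taken by symbol from a table of 55450 genes. They are the ligand gene Tgfb1, the receptor genes Tgfbr1, Tgfbr2 and Tgfbr3, the SMAD genes Smad2, Smad3, Smad4 and Smad7, and the repressor genes Ski and Skil. All 10 were found, and all 10 passed the filter on low counts. RNA-seq of naive CD8 T cells from mouse lymph nodes was available for 3 CD103KO libraries, from Itgae-/- mice, and 3 WT libraries, from C57BL/6 mice. The sorted cells carried neither Ly6C nor CXCR3 in either genotype. No treatment, age or animal number is given, and the strain background of the Itgae-/- mice is not stated. The comparison asks whether naive cells that lack CD103, the integrin alpha E chain, carry a different set of TGF-beta pathway transcripts.

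TGF-beta is secreted in a latent form, and integrins that contain the alpha V chain are among its activators. The active ligand binds the type II receptor, which recruits and phosphorylates the type I receptor. That receptor phosphorylates SMAD2 and SMAD3, which join SMAD4 and enter the nucleus. SMAD7 blocks the receptor step, and SKI and SKIL (SnoN) repress the SMAD complex on DNA. In T cells the pathway restrains activation, and it induces transcription of Itgae, which encodes CD103.

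Itgae checks the genotype labels. Its level was 67.9, 67.9 and 61.1 CPM (counts scaled to library size with TMM factors) in CD103KO replicates 1, 2 and 3, against 490.8, 495.4 and 459.9 CPM in WT replicates 1, 2 and 3. The log2 fold change was -2.88 (SE 0.06, adjusted p = 4.06e-08, edgeR quasi-likelihood test), with no overlap between groups. Itgb7, the partner chain of CD103, averaged 808.9 ± 17.6 CPM in CD103KO and 870.0 ± 43.7 CPM in WT (SD, n = 3 each) and did not pass (adjusted p = 0.551, edgeR). Library totals were 68292475 to 76044311 expected counts in CD103KO and 74438908 to 94347034 in WT. Summed CPM of 9 genes of naive CD8 T cells, Cd8a and Ccr7 among them, was 8760 to 8970 in CD103KO and 8890 to 9020 in WT. Xist reached 66.9 CPM in WT replicate 1 and 79.7 CPM in WT replicate 2, where the Y-linked gene Ddx3y had 0 counts. In the other 4 libraries Xist gave 0 to 2 counts and Ddx3y 47.8 to 56.2 CPM. By these 2 genes, WT replicates 1 and 2 had the pattern of female cells, and WT replicate 3 and all CD103KO libraries that of male cells. In the comparison with WT replicates 1 and 2, genotype and this difference cannot be told apart. WT replicate 3 is the only WT library that matches CD103KO here. Tgfb1, Tgfbr3, Smad7, Itgb1, Bmpr2, Eng, Id2 and Fasl, described below, are therefore also given against it alone. Such a fit of the 4 libraries without Xist reads has 1 WT library, so it is given as a value with no p.

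None of the 10 pathway genes was called between the genotypes. EdgeR called 0 of 10 at an adjusted p of 0.05, where 0.223% of the 13470 tested genes were called. At an unadjusted p under 0.05 edgeR gave 2 of the 10, Tgfbr3 and Smad7, where 8.73% of all tested genes were below that p. DESeq2 and limma-voom also called 0 of the 10, where they called 1.02% and 0.215% of all genes, and both gave the same 2 genes below an unadjusted p of 0.05. Fitted changes ran from 12.9% lower (Smad7) to 9.0% higher (Tgfbr3) in CD103KO. The 95% intervals of the fold, not adjusted for the number of genes, lay between 0.783 and 1.19 for all 10. The median log2 fold change of the 10 genes was -0.01, and that of all tested genes was -0.003. At 3 libraries per group, changes smaller than these intervals were not resolved.

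**Figure D1:**
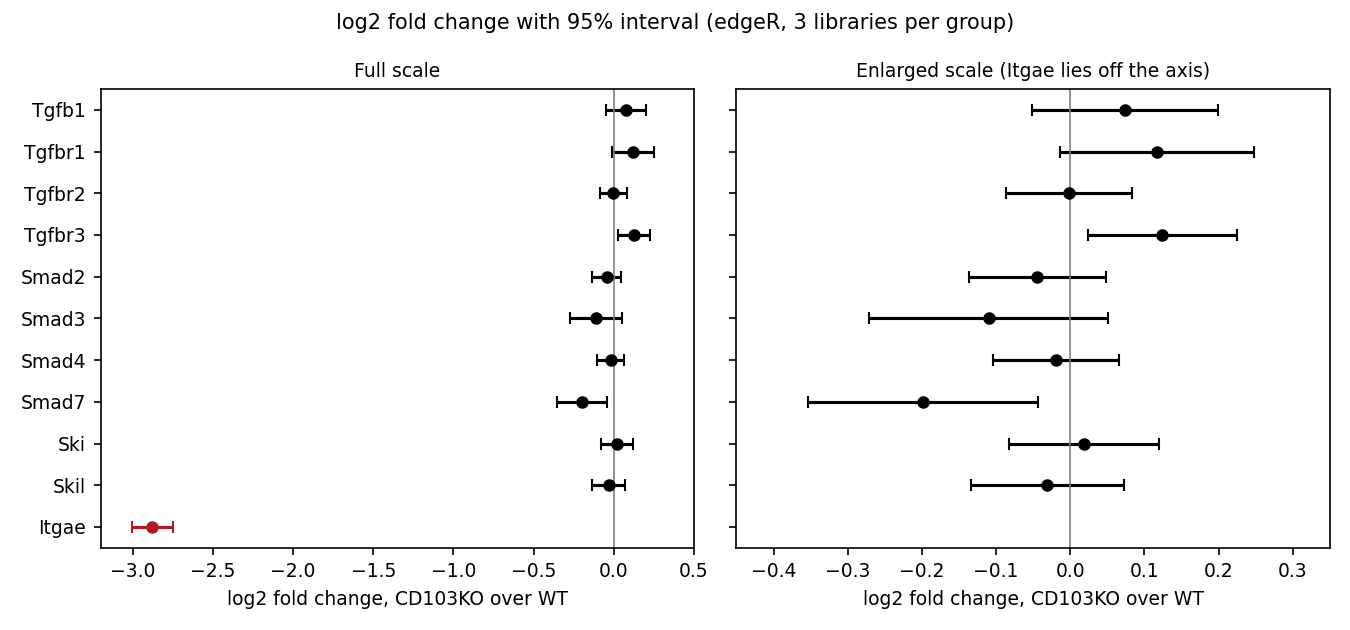
log2 fold change of CD103KO over WT with its 95% interval (edgeR, 3 libraries per group) for the 10 pathway genes and Itgae, on a full scale and an enlarged one. Itgae lies at -2.88, while the pathway genes lie between -0.20 (Smad7) and 0.12 (Tgfbr3).

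Tgfb1 (ENSMUSG00000002603.15, chromosome 7, 25687002 to 25705077, plus strand, GRCm38) encodes the ligand. Its level was 131.9, 142.4 and 142.4 CPM in CD103KO replicates 1, 2 and 3, against 131.3, 123.8 and 140.8 CPM in WT replicates 1, 2 and 3. The groups overlapped, since WT replicate 3 was above CD103KO replicate 1. The log2 fold change was 0.07 (SE 0.06, adjusted p = 0.735, edgeR), and the 95% interval of the fold was 0.965 to 1.15. It was 0.03 without WT replicate 2 and 0.12 without WT replicate 3, so its size depended on single WT libraries. The log2 fold change stayed positive with any 1 library left out (0.0276 to 0.123), and was -0.02 against WT replicate 3 alone.

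The receptor genes were present at unequal levels. Tgfbr2 (ENSMUSG00000032440.13, chromosome 9, 116084293 to 116175360, minus strand), the ligand-binding type II receptor, had 506.1, 479.2 and 491.5 CPM in CD103KO and 497.0, 499.6 and 482.3 CPM in WT. These values overlapped fully, and the means of 492.2 ± 13.5 CPM in CD103KO and 493.0 ± 9.33 CPM in WT (SD, n = 3 each) differed by -0.0022 on the log2 scale (SE 0.04, adjusted p = 0.991, edgeR). The 95% interval of its fold was 0.941 to 1.06. Tgfbr1 (ENSMUSG00000007613.15, chromosome 4, 47353222 to 47414931, plus strand), the type I signalling receptor, had 45.2, 48.9 and 49.9 CPM in CD103KO and 46.6, 42.5 and 43.6 CPM in WT. WT replicate 1 lay above CD103KO replicate 1, so the groups overlapped. At 0.12 (SE 0.06), its log2 fold change did not pass (adjusted p = 0.620, edgeR).

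Tgfbr3 (ENSMUSG00000029287.14, chromosome 5, 107106570 to 107289629, minus strand) encodes betaglycan, a co-receptor that presents ligand to the type II receptor. Its level was 50.1, 48.0 and 48.7 CPM in CD103KO, against 44.4, 45.4 and 44.9 CPM in WT. Every CD103KO library was above every WT library, a pattern seen in this direction for 6.82% of all tested genes. The log2 fold change was 0.12 (SE 0.04, unadjusted p = 0.0206, adjusted p = 0.473, edgeR), which did not pass. Against WT replicate 3 alone it was 0.13. Summed CPM of 8 B cell markers was also higher in CD103KO (6.55 to 10.9) than in WT (1.95 to 2.67), with none of the 8 at 0. The sum of 5 markers of CD4 and regulatory T cells was 21.7 to 22.5 CPM in CD103KO and 18.1 to 19.1 CPM in WT. Ikzf2 made up most of it, at a mean of 12.8 CPM in CD103KO and 9.95 CPM in WT, and was the only marker of the 5 without overlap. Foxp3, at 2.00 CPM in CD103KO and 1.80 CPM in WT, overlapped, as did Ctla4 and Il2ra, and Cd4 was at 0.181 CPM in CD103KO and 0.348 CPM in WT. Summed CPM of 4 NK cell markers was 402 to 428 in CD103KO and 394 to 396 in WT, though each of the 4 genes overlapped. Nkg7 and Klrd1 made up most of it, at means of 296.3 and 115.7 CPM in CD103KO and 284.0 and 109.4 CPM in WT. Ncr1 and Klrb1c were low, at 0.188 and 1.30 CPM in CD103KO and 0.196 and 1.47 CPM in WT. Sums of myeloid and of stromal markers overlapped. The stromal sum was nearly all Pecam1, at a mean of 145.9 CPM in CD103KO and 142.6 CPM in WT. Col1a1, at 0.428 CPM in CD103KO and 0.293 CPM in WT, was without overlap. Pdgfrb, at 0.764 CPM in CD103KO and 1.05 CPM in WT, overlapped, and Ccl21a, Lyve1 and Pdpn had too few counts to be tested. The sum of 8 erythrocyte and platelet markers was 57.1 to 92.1 CPM in CD103KO and 32.6 to 49.3 CPM in WT. It came from haemoglobin genes, since the platelet genes Pf4 and Gp9 had 0 counts in all 6 libraries, Ppbp 0 to 2 and Itga2b 1 to 8. The part of these cells in the level of Tgfbr3 was not tested. In bulk RNA, fewer cells of a type and less RNA per cell cannot be told apart. The annotation of Tgfbr3 shares 297 exon bases on the same strand with Gm43422, and 2 of its 6 deposited values were not exactly whole numbers.

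**Figure D2:**
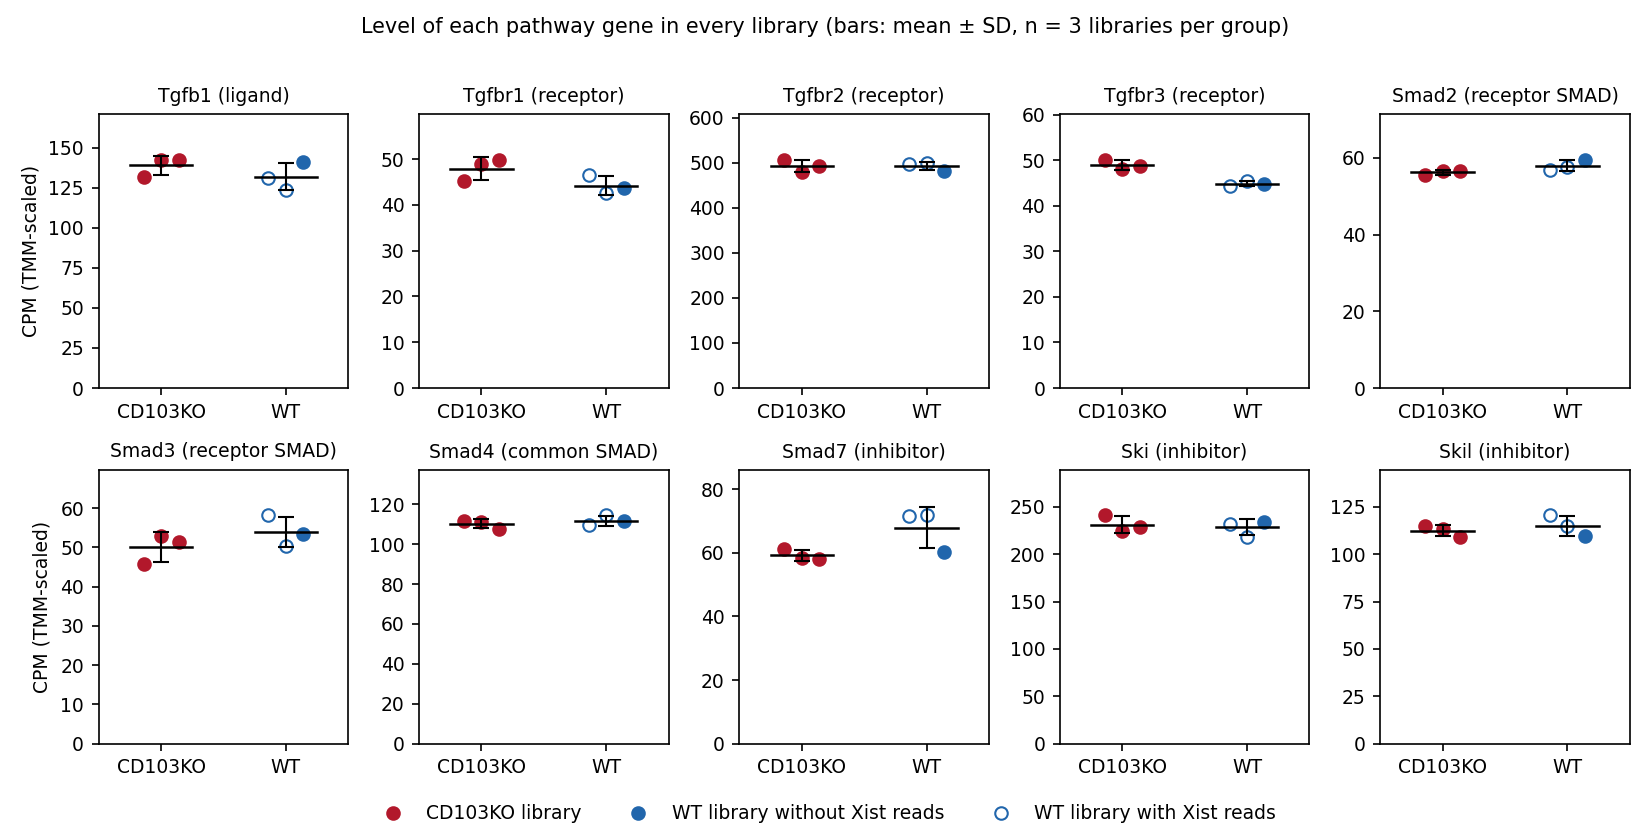
CPM of each pathway gene in every library, CD103KO to the left of WT, with the mean and SD of 3 libraries; every axis starts at 0, and open symbols mark the WT libraries with Xist reads. Tgfbr3 is separated between groups by a small step, and the Smad7 value of WT replicate 3 (60.4 CPM) lies among the CD103KO values (58.1 to 61.2 CPM).

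The receptor-regulated SMAD genes were slightly lower in CD103KO without passing. Smad2 (ENSMUSG00000024563.16, chromosome 18, 76241580 to 76310963, plus strand) had 55.5, 56.6 and 56.5 CPM in CD103KO and 56.8, 57.6 and 59.5 CPM in WT. The highest CD103KO library lay just under the lowest WT library, a pattern seen in this direction for 7.36% of all tested genes. Its log2 fold change was -0.04 (SE 0.04, adjusted p = 0.785, edgeR), and its fold had a 95% interval of 0.909 to 1.03. Smad3 (ENSMUSG00000032402.12, chromosome 9, 63646767 to 63757994, minus strand), the SMAD of the pair that contacts DNA directly, had 45.7, 52.9 and 51.4 CPM in CD103KO and 58.1, 50.5 and 53.3 CPM in WT. Its groups overlapped, and CD103KO replicate 1 and WT replicate 1 lay at the opposite ends of the range. The log2 fold change of Smad3 was -0.11 (SE 0.07, adjusted p = 0.700, edgeR), -0.05 without CD103KO replicate 1 and -0.05 without WT replicate 1. Smad4 (ENSMUSG00000024515.13, chromosome 18, 73639009 to 73703780, minus strand), the shared partner of the receptor-regulated SMADs, had 111.8, 111.2 and 107.8 CPM in CD103KO and 109.4, 114.4 and 111.4 CPM in WT. These values overlapped, and the log2 fold change was -0.02 (SE 0.04, adjusted p = 0.916, edgeR), with a 95% interval of 0.930 to 1.05 for the fold.

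Among the inhibitors, Smad7 had the lowest fitted fold of the 10 genes. Smad7 (ENSMUSG00000025880.11, chromosome 18, 75367529 to 75395935, plus strand) is itself induced by TGF-beta and closes a negative feedback loop at the receptor. Its level was 61.2, 58.4 and 58.1 CPM in CD103KO replicates 1, 2 and 3, against 71.7, 71.8 and 60.4 CPM in WT replicates 1, 2 and 3. WT replicates 1 and 2, the libraries with Xist reads, were above all CD103KO libraries, whereas WT replicate 3 lay below CD103KO replicate 1. The log2 fold change was -0.20 (SE 0.07, unadjusted p = 0.0173, adjusted p = 0.455, edgeR), which did not pass. It was -0.28 without WT replicate 3 (adjusted p = 0.0691, edgeR) and -0.03 against WT replicate 3 alone. Over all 18 alternatives the adjusted p was 0.0691 to 0.973. With all 6 libraries and a term for Xist reads, the log2 fold change of Smad7 was -0.03 as well. That fit likewise sets CD103KO against WT replicate 3 alone, so it repeats the same contrast and is given with no p.

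The SKI family repressors showed little difference. Ski (ENSMUSG00000029050.15, chromosome 4, 155154075 to 155222592, minus strand) had 240.9, 224.2 and 228.7 CPM in CD103KO and 232.4, 218.6 and 233.8 CPM in WT. Skil (ENSMUSG00000027660.16, chromosome 3, 31095058 to 31122577, plus strand), a target of the pathway as well as its repressor, had 114.9, 113.5 and 109.1 CPM in CD103KO and 120.5, 115.0 and 109.6 CPM in WT. Both pairs of groups overlapped. The log2 fold changes were 0.02 for Ski (SE 0.04, adjusted p = 0.932, edgeR) and -0.03 for Skil (SE 0.05, adjusted p = 0.874, edgeR), and their fold intervals were 0.945 to 1.09 and 0.911 to 1.05.

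Levels of different genes were compared per kilobase of annotated exon, since longer transcripts collect more counts. On this scale, Tgfbr2 was the most abundant of the 10 at 60.1 ± 1.65 CPM per kb in CD103KO and 60.2 ± 1.14 CPM per kb in WT (SD, n = 3 each). Ski followed at 41.6 ± 1.56 in CD103KO and 41.0 ± 1.51 in WT, then Smad4 at 29.7 ± 0.578 in CD103KO and 30.1 ± 0.683 in WT, and Tgfb1 at 27.5 ± 1.21 in CD103KO and 26.2 ± 1.69 in WT. The other 6 genes were lower, from Smad7 at 13.1 ± 0.378 CPM per kb in CD103KO and 15.0 ± 1.45 in WT to Smad2 at 6.40 ± 0.0721 in CD103KO and 6.60 ± 0.158 in WT. In between lay Skil, Smad3, Tgfbr3 and Tgfbr1 in that order, and the order of the 10 was the same in both genotypes. Neighbours in this order did not overlap over the 6 libraries, except that Tgfbr1, at 6.51 to 7.63 CPM per kb, overlapped Tgfbr3 above it (6.78 to 7.66) and Smad2 below it (6.32 to 6.77).

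**Figure D3:**
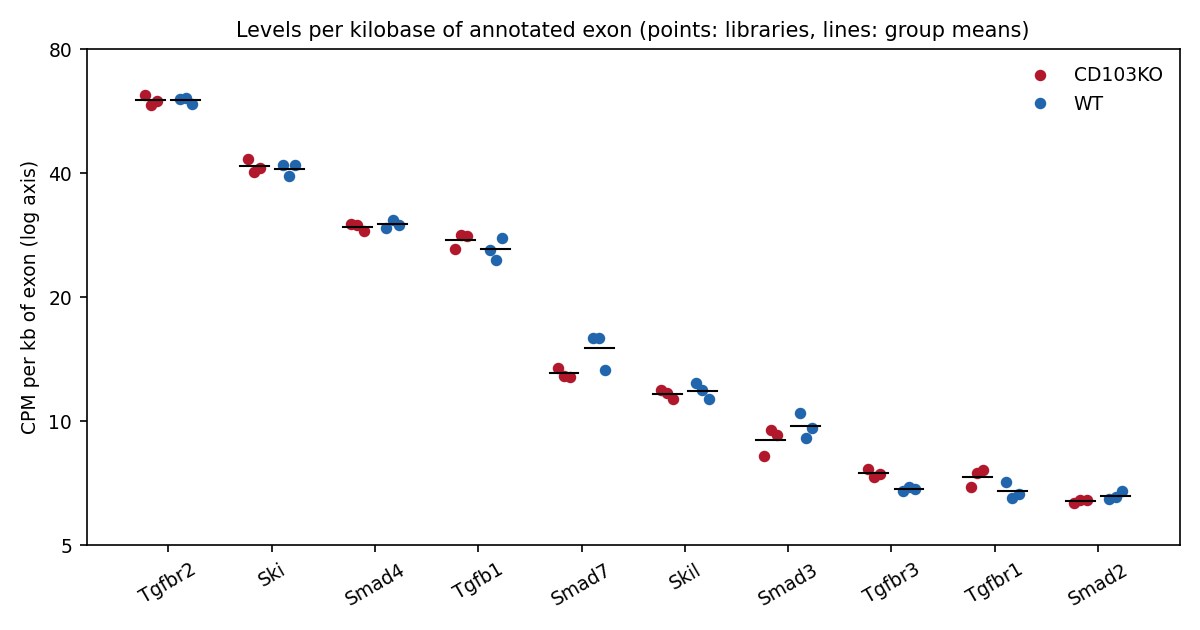
Level of each pathway gene in CPM per kilobase of annotated exon on a log axis, in order of the WT mean; points are libraries, with CD103KO to the left of WT, and lines are group means. Tgfbr2 stands at about 60.2 in WT, and at the low end Tgfbr1 overlaps both Tgfbr3 and Smad2.

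The type II receptor transcript thus stood well above those of the other receptor chains. Tgfbr1 reached 11.2% and Tgfbr3 11.4% of the Tgfbr2 level per kilobase in WT, and Tgfbr2 was at percentile 94.9 of all tested genes on this scale, with Tgfbr1 at percentile 61.5. With the longest annotated transcript as the length, Tgfb1 moved from the fourth to the second place, Skil passed Smad7 and Tgfbr1 passed Tgfbr3. The lengths behind these levels are those of the annotation, not of the isoforms expressed here.

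Ratios between pathway genes within a library do not depend on library scaling. Counts of Tgfbr3 over those of Tgfbr2 were 0.0990, 0.10 and 0.0991 in CD103KO and 0.0894, 0.0909 and 0.0930 in WT, so every CD103KO library was higher. The difference was 0.13 on the log2 scale (p = 0.1 in an exact permutation test, two-sided, which cannot go lower with 3 libraries a group, and adjusted p = 0.6 over 6 ratios). Tgfbr1 over Tgfbr2 averaged 0.0976 ± 0.0072 in CD103KO and 0.0898 ± 0.0043 in WT (SD, n = 3 each, exact two-sided permutation p = 0.3). Smad2 over Smad3 was 1.13 ± 0.076 in CD103KO and 1.08 ± 0.089 in WT (exact p = 0.6). Smad7, the inhibitor, stood to Smad3, the effector, at 1.19 ± 0.13 in CD103KO and 1.26 ± 0.15 in WT (exact p = 0.5). Ratios of Smad4 over Smad3 and Ski over Skil gave exact p = 0.4 each, and no adjusted p was below 0.6.

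The spread between libraries of a group was larger than counting error for each of the 10 in at least 1 genotype. For Tgfbr2 the SD was 2.74% of the mean in CD103KO and 1.89% in WT, where its 32639 to 47833 counts per library would give at most 0.554% from counting alone. Smad7 had an SD of 2.89% in CD103KO and 9.65% in WT, with a counting error of at most 1.59%. Smad3 varied about equally in both groups, by 7.60% in CD103KO and 7.17% in WT. Smad2 in CD103KO and Tgfbr3 in WT varied by 1.13% and 1.14%, below their lowest counting errors of 1.35% and 1.52%.

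Reads of the 10 genes were largely their own. Of the 60 deposited values of these genes, 2 were not exactly whole, where 19.3% of the values of all tested genes were not. Over stretches of 50 bases, 7 of the 10 genes shared none of their annotated transcript sequence with another gene. Tgfbr3 shared 3.85% (all with Gm43422), Tgfbr2 0.586% and Tgfb1 0.278%, and no stretch was shared among the 10, the related pairs Smad2 and Smad3 or Ski and Skil included.

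Other genes of the pathway were followed in 8 lists by role. Of their 109 genes, 88 were tested. Itgae, a member of the list of induced targets, was the only gene called by edgeR. The other 87 tested genes gave 0 calls with edgeR, where 0.223% of all tested genes were called. At an unadjusted p under 0.05 (edgeR), 5 of the 87 were higher and 4 lower in CD103KO. Of all tested genes, 4.53% were higher and 4.2% lower at that p. The median log2 fold change of the 87 was 0.02. DESeq2 called 1 of the 87, Id3, and limma-voom 0, where they called 1.02% and 0.215% of all genes. The edgeR share also applies to the calls of each list given below. Of the 87, 3 lie within 20 Mb of Itgae on chromosome 11, namely Ncor1, Map2k3 and Traf4, and none of them was called, with log2 fold changes of 0.02 to 0.09.

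**Figure D4:**
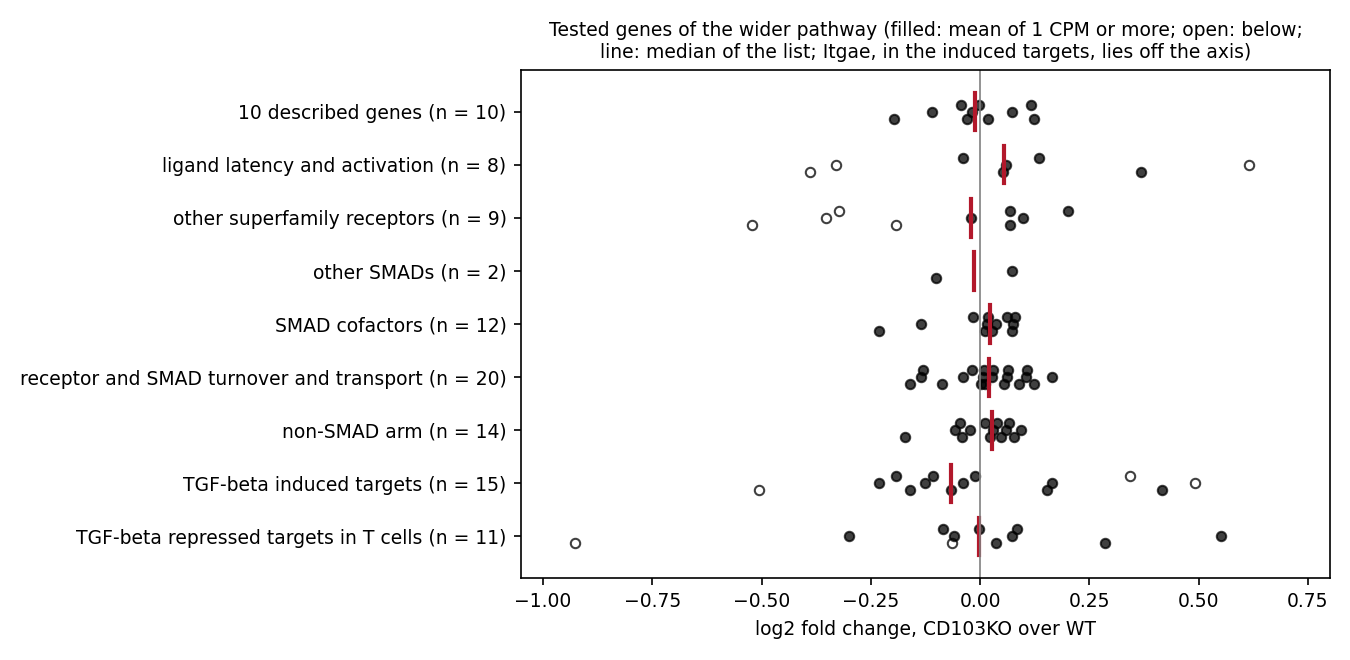
log2 fold change of CD103KO over WT for the tested genes of each list, by role, with the list's median as a red line; filled points have a mean of at least 1 CPM, and Itgae (-2.88) lies off the axis. List medians run from -0.07 for induced targets, with Itgae included, to 0.055 for ligand latency and activation, and the widest scatter is among open points.

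Genes that hold, release or activate the ligand gave 0 of 8 called. Itgb1, an integrin chain that pairs with alpha V among others, averaged 103.7 ± 5.01 CPM in CD103KO and 94.4 ± 5.87 CPM in WT (SD, n = 3 each, adjusted p = 0.535, edgeR). WT replicate 3 was at 101.2 CPM, and WT replicates 1 and 2 averaged 91.0 CPM. The log2 fold change of Itgb1 was 0.135 with all libraries and 0.0353 against WT replicate 3 alone. Lrrc32 encodes GARP, which tethers latent TGF-beta on regulatory T cells and platelets. It had 0.531, 0.514 and 0.556 CPM in CD103KO and 0.414, 0.282 and 0.352 CPM in WT, without overlap (unadjusted p = 0.0477, adjusted p = 0.567, edgeR). Of all tested genes, 6.82% were likewise higher in every CD103KO library and 7.36% lower, which also applies to the genes without overlap named next. Of the markers given above, Ikzf2 was higher in every CD103KO library, Foxp3 overlapped between the genotypes, and platelet genes were at or near 0. The part of regulatory T cells or platelets in the level of Lrrc32 was not tested.

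Other receptors of the superfamily gave 0 of 9 called. Bmpr2, a type II receptor for bone morphogenetic proteins, averaged 10.6 ± 1.02 CPM in CD103KO and 9.19 ± 0.762 CPM in WT (adjusted p = 0.593, edgeR, n = 3 each). Eng, the co-receptor endoglin, was at 52.1 ± 3.11 CPM in CD103KO and 49.7 ± 3.05 CPM in WT (adjusted p = 0.786, edgeR, n = 3 each). Against WT replicate 3 alone the log2 fold change was 0.0961 for Bmpr2 and 0.173 for Eng. With all libraries it was 0.202 for Bmpr2 and 0.0686 for Eng. Of the remaining SMAD genes, Smad1 and Smad5, which serve bone morphogenetic protein receptors, were tested. Smad1 averaged 18.0 CPM in CD103KO and 19.3 CPM in WT, Smad5 averaged 36.4 CPM in CD103KO and 34.6 CPM in WT, and neither was called (adjusted p = 0.717 and 0.763, edgeR). The other inhibitory SMAD, Smad6, had too few counts to be tested, with a mean of 0.00930 CPM in CD103KO and 0.0146 CPM in WT, so that Smad7 was the only inhibitory SMAD tested in these cells.

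Nuclear cofactors of the SMADs gave 0 of 12 called. Tgif1, a corepressor of SMAD2 and SMAD3, had 17.6, 16.8 and 17.2 CPM in CD103KO, against 20.8, 19.6 and 20.1 CPM in WT. All CD103KO libraries were below all WT libraries, and the log2 fold change of -0.23 (SE 0.06, unadjusted p = 0.00308) did not pass (adjusted p = 0.288, edgeR). Trim33, a ubiquitin ligase that binds SMADs, averaged 124.3 ± 3.91 CPM in CD103KO and 118.0 ± 1.41 CPM in WT (SD, n = 3 each, adjusted p = 0.632, edgeR), without overlap. Enzymes and carriers of receptor and SMAD turnover gave 0 of 20. The ubiquitin ligase Wwp2 averaged 61.8 ± 1.19 CPM in CD103KO and 56.8 ± 1.38 CPM in WT, and Usp9x, a deubiquitinase of SMAD4 encoded on the X chromosome, averaged 251.4 ± 9.17 CPM in CD103KO and 233.2 ± 3.55 CPM in WT (n = 3 each). Both were free of overlap and neither passed (adjusted p = 0.449 for Wwp2 and 0.492 for Usp9x, edgeR). The arm that signals without SMADs gave 0 of 14. Traf6, an adaptor ligase of that arm, averaged 75.6 CPM in CD103KO and 78.6 CPM in WT (adjusted p = 0.709, edgeR), also without overlap.

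Targets of TGF-beta other than Itgae were not called by edgeR in either direction. Among 15 tested induced targets, the 14 beside Itgae had positive log2 fold changes in 5 cases and negative ones in 9. Id3, an inhibitor of E proteins, and Junb, an AP-1 subunit, are named after their values were seen, because other settings called them. Id3 had 36.4, 45.3 and 50.3 CPM in CD103KO and 34.4, 31.1 and 33.4 CPM in WT, all CD103KO libraries being higher. Its log2 fold change of 0.42 did not pass with edgeR (adjusted p = 0.310) but did with DESeq2 (adjusted p = 0.00967). Junb had 95.5, 78.4 and 79.1 CPM in CD103KO and 95.9, 99.7 and 93.6 CPM in WT, with overlap at CD103KO replicate 1. It passed without that library (log2 fold change -0.29, adjusted p = 0.0352, edgeR), as did Id3 (0.54, adjusted p = 0.0262), but not with all 6 (adjusted p = 0.501).

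Among genes that TGF-beta represses in T cells, 0 of 11 tested were called. Id2, which like Id3 inhibits E proteins, had 68.5, 52.7 and 50.9 CPM in CD103KO and 76.3, 72.3 and 62.9 CPM in WT, with CD103KO replicate 1 above WT replicate 3 (adjusted p = 0.497, edgeR). Its log2 fold change was -0.30, and -0.13 against WT replicate 3 alone. Fasl, a death ligand, was at 0.241 ± 0.0493 CPM in CD103KO and 0.461 ± 0.356 CPM in WT (n = 3 each, adjusted p = 0.674, edgeR). The WT mean rested on WT replicate 3, at 0.868 CPM, against a mean of 0.258 CPM in WT replicates 1 and 2. The log2 fold change of Fasl was -0.93 with all libraries, -0.09 without WT replicate 3 and -1.84 against WT replicate 3 alone.

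The genes most like 3 of the pathway genes over the 6 libraries are given as a description, by Pearson's r of log2 CPM, with scaling and depth shared by all points. For Tgfb1 they were Ifit1bl1 (r = 0.999), of an interferon-induced gene family, and Ercc2 (r = 0.995), a DNA repair helicase gene, both highest in CD103KO replicates 2 and 3 and lowest in WT replicate 2. Tgfbr2 was most like Nhlrc1 (r = 0.989) and Rnf170 (r = 0.987), genes of ubiquitin ligases. Smad7 was most like Ncf1 (r = 0.995), a subunit of the phagocyte oxidase, and Ulk2 (r = 0.993), an autophagy kinase gene. Ncf1 had 57.0 and 58.2 CPM in WT replicates 1 and 2 but 31.8 CPM in WT replicate 3, near its CD103KO values of 29.9 to 34.6 CPM. For Smad7, 64 tested genes had an r above 0.95, so these names are a few among many.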

How the data were processed

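Polyadenylated RNA was sequenced from sorted naive CD8 T cells of 3 CD103KO and 3 WT libraries. The authors deposited expected counts per gene and library, not normalized; the submitters' processing notes name RSEM, STAR 2.7.0f, cutadapt 1.18 and bcl2fastq 2.20, and the builds GRCm38 and mm10. Not given in the sources used here are the annotation, the strand setting and how multiply aligned reads were counted. All gene identifiers matched GENCODE M21 (GRCm38), the source of coordinates and exon lengths.

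Counts were rounded, filtered (filterByExpr, minimum count 10) and TMM-scaled, and CD103KO was tested against WT with edgeR 4.0.16 (R 4.3.3; quasi-likelihood F test on group, Benjamini-Hochberg over 13470 genes at 0.05). The standard error is the log2 fold change over the square root of F. No library was a copy of another in its group (chi-square per degree of freedom 12.6 to 26.3, where sampling noise gives about 1). 1 count equals 0.0104 to 0.0147 CPM. Whether each library is a separate animal is not labelled, and p-values cover only the spread between these samples, which may be technical.

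Alternatives were RLE and upper-quartile factors, other filters, DESeq2 1.42.0, limma-voom 3.58.1 with and without quality weights, an adjusted p of 0.01, counts left unrounded, the replicate number as a block, a term for Xist reads (above 1 CPM), only the libraries without them, and each library left out. The 10 genes, the lists and the alternatives were chosen with earlier results of these data known. From each list the text names up to 3 called genes or, with none called, the 2 of smallest p; Id3 and Junb, and genes named only for their place on chromosome 11, as untested or as undetected, are outside that rule. For 1 gene that the rule names, counted with its list, no values are reported here. Figures used matplotlib 3.10.9.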

Additional observations from a re-analysis of the deposited data

How the results depend on the processing

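None of the 10 pathway genes was called under any of the 18 alternatives. These are not independent checks. The adjusted p of 0.01 reuses the main fit and could call no further gene. Unrounded counts gave nearly the same values as the main fit, and both settings on Xist reads set CD103KO against WT replicate 3. Tgfbr1 and Tgfbr3 kept a positive and Smad2, Smad3, Smad4 and Smad7 a negative log2 fold change in all 18, while genes near 0 changed sign. Tgfbr2 was at 0.000306 with RLE factors and 0.000309 with DESeq2, and Ski at -0.000791 with quality weights. With the Xist term Tgfb1 was at -0.0194, Tgfbr2 at 0.0294, Ski at -0.0157 and Skil at 0.0388, and in libraries without Xist reads they were at -0.0189, 0.0298, -0.0152 and 0.0393 in that order. With a library left out, Tgfbr2 ran from -0.0233 to 0.0136, Ski from -0.0137 to 0.0378 and Skil from -0.0653 to 0.00291. Over all genes 30 were called, against 112 with no filter, 137 with DESeq2, 50 with quality weights, 19 at an adjusted p of 0.01, 15 with the Xist term and 13 without Xist libraries. Leaving a library out gave 19 to 59 (52 without WT replicate 3, 59 without CD103KO replicate 1, 19 without CD103KO replicate 2). Induced targets had 2 calls with no filter and 2 with DESeq2 (Id3 beside Itgae), and 1 to 3 with a library left out. Without Xist libraries, the log2 ratio difference was 0.0964 for Tgfbr3 over Tgfbr2, 0.067 for Smad7 over Smad3 (-0.0834 with all) and -0.0548 for Ski over Skil (0.0495 with all). With a library left out, Smad2 over Smad3 ran from -0.00349 to 0.109 and Smad7 over Smad3 from -0.171 to 0.00543. The cause of these shifts was not tested. The replicate block gave 24 calls and 0 of the 10 genes. Same-numbered libraries did not deviate together (r = -0.199, -0.005 and -0.03). With so few libraries these values cannot exclude a pairing, and the labels do not state one.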
